A study of Mus musculus with 8 samples.

Results

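Interferon-stimulated genes are the genes that cells switch on in answer to interferons, the cytokines of antiviral defence. A list of 41 mouse genes of this kind, with the sensors, signalling factors, antiviral effectors and induced GTPases best known from the response, was followed in neural stem cells (NSCs) that had been irradiated. Members were found by name among the probe sets of the array, a probe set being a group of short probes that read 1 transcript. Of the 41 genes, 39 had a probe set annotated to that gene alone, and the brightest over all 8 arrays stood for each gene. Isg15 shares its probe set with another gene name, and neither it nor Ifi44 was analysed here. These 39 genes compare with 18193 genes measured in the same way on the whole array.

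The irradiated cultures, called irr, were mouse NSCs derived from embryonic stem cells and exposed to 10 Gy of X-rays, with RNA taken on day 7. The other cultures, called non-irr, were the same kind of NSCs without exposure, and both kinds grew in serum-free medium with N2 supplement, EGF and FGF2. No day is given for the non-irr cultures, so a difference in time in culture could not be told apart from exposure. Each group held 4 arrays, which the design text calls biological quadruplicates, and no genotype or transgene differed between them. The study's methods state that NSCs of the ES line E14Tg2a were the main ones across the study, without naming the line of these arrays. By the same methods, cells were not passaged after exposure. Values are log2 intensities, so that a difference of 1 is a 2-fold change.

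In the textbook pathway, a cell that senses foreign or misplaced nucleic acid through Ddx58 (RIG-I), Ifih1 (MDA5) or the cGAS and Tmem173 (STING) route makes type I interferon. The interferon binds the receptor pair Ifnar1 and Ifnar2, the kinases Jak1 and Tyk2 are activated, and a complex that includes Stat2 and Irf9 binds the interferon-stimulated response element in promoters of antiviral genes. Interferon gamma acts through Ifngr1, Ifngr2, Jak1 and Jak2 on promoters with a gamma-activated site.

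Most members that could be measured well were higher in irr NSCs. A gene was tested when its probe set passed an intensity of 100 on at least 1 array, and 22 members did so, beside 11364 genes in all. Of the 22, 16 were higher (Adar among them, whose probe sets disagree), 2 were lower and 4 were not called at an adjusted p under 0.05 from limma, a linear model with a shared estimate of spread. This is 72.7% higher and 9.09% lower, against 40.2% higher and 37.1% lower among all genes tested. At least 2-fold increases were found in 8 members (36.4%) and at least 2-fold decreases in 0, the lowest log2 fold change being -0.66, against 8.88% and 6.16% of all genes. Of these 8, 4 were in the fit through irr arrays alone, and among the 17 members over the intensity on all 8 arrays 4 (23.5%) were at least 2-fold higher, against 7.23% of all genes over it on all arrays. The median log2 fold change of the 22 members was 0.55, and that of all genes tested was 0.01. In bulk samples such as these, fewer cells of a type and less RNA per cell cannot be told apart. The arrays of irr and non-irr NSCs did not overlap for 18 of the 22 members (81.8%), against 73.4% of all genes. The 18 include the 5 members in the fit through irr arrays alone, so this share is partly set by the filter. Those that overlapped (Ifit2, Stat2, Bst2 and Eif2ak2) were all among the 17 members over the intensity on all 8 arrays.

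Because 5 of the 22 members (Ifit3, Iigp1, Xaf1, Cxcl10 and Gbp3) passed the intensity through irr arrays alone, they had to be higher there. The 17 members over the intensity on all 8 arrays included 11 higher, 2 lower and 4 not called. They had a median log2 fold change of 0.47, against 0.01 for the 10037 genes that met the same condition, of which 39.8% were higher and 37.8% lower. With no intensity filter, all 39 members were tested, and 23 were higher, 5 lower and 11 not called, with a median of 0.36. This is 59.0% higher and 12.8% lower, against 26.6% higher and 28.9% lower among 18193 genes. If the arrays were centred on 8 reference genes in place of the deposited scale, the median of all probe sets moved to 0.10 on the log2 scale and 69.2% of the at least 2-fold calls among all probe sets were increases, against 58.6% as deposited. The counts of members higher and lower stayed at 16 and 2 under that scale.

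**Figure D1:**
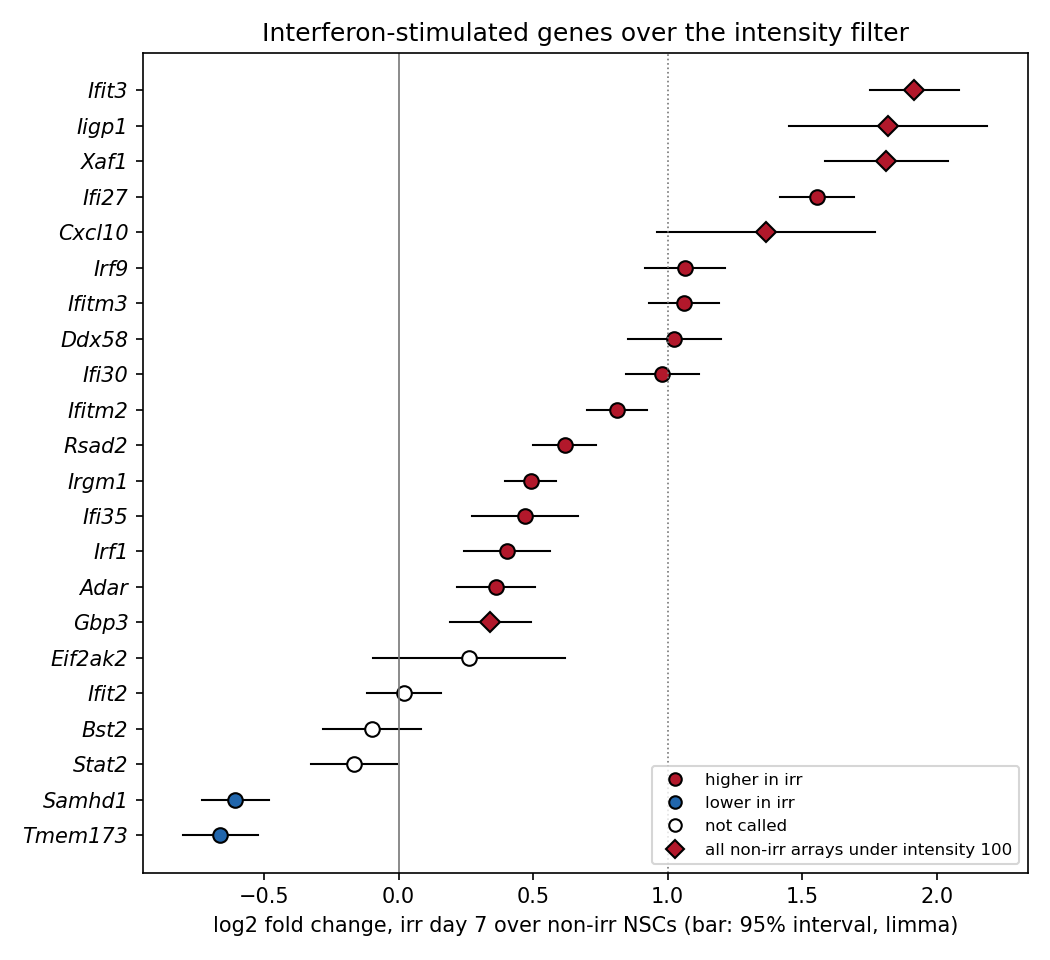
Log2 fold change of irr over non-irr NSCs for the 22 interferon-stimulated genes over the intensity filter, with 95% intervals from limma over 4 arrays per group. Red symbols are higher in irr, blue lower and white not called, diamonds have every non-irr array under an intensity of 100, and the dotted line marks a 2-fold increase. Fitted changes run from 1.92 for Ifit3 to -0.66 for Tmem173.

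Of the signalling and regulatory factors, Irf9 moved and its partner did not pass the test. Irf9, the subunit through which the interferon-activated complex contacts DNA, had log2 values of 8.04, 7.85, 7.97 and 7.93 in irr NSCs, against 6.80, 7.05, 6.82 and 6.86 in non-irr NSCs. The lowest irr array lay well above the highest non-irr array, and the log2 fold change was 1.07 ± 0.07 (SE, n = 4 per group, adjusted p = 3.0e-07 from limma), a 2.09-fold increase. Stat2, a subunit of that complex, had 6.90, 6.81, 6.86 and 6.88 in irr NSCs, against 7.23, 6.96, 7.04 and 6.89 in non-irr NSCs. Its irr arrays overlapped the lowest non-irr array, and its log2 fold change of -0.17 (95% interval -0.33 to -0.01, adjusted p = 0.058 from limma) missed the threshold. Without non-irr replicate 4, the array that overlapped, it was -0.21 and was called lower (adjusted p = 0.023 from limma). A second probe set of Stat2, under the intensity on all arrays, differed in the other direction, with 5.90 ± 0.06 in irr NSCs and 5.70 ± 0.05 in non-irr NSCs (SD, n = 4). Irf1, a transcription factor induced by both interferon types, was higher by 0.40 (adjusted p = 5.2e-04 from limma), with 9.64 to 9.71 in irr NSCs and 9.13 to 9.46 in non-irr NSCs. Irf7, the factor that amplifies type I interferon production, and Irf8, a factor best known from myeloid cells, stayed under this intensity on all arrays.

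The sensors moved in opposite directions. Ddx58, which recognises viral RNA ends in the cytosol, had 8.49, 8.31, 8.41 and 8.51 in irr NSCs, against 7.58, 7.44, 7.24 and 7.36 in non-irr NSCs. No irr array came near a non-irr array, and the increase was 1.02 ± 0.08 on the log2 scale (SE, n = 4 per group, adjusted p = 1.2e-06 from limma), or 2.03-fold. Its second probe set was in the fit through irr arrays alone and was at least 1.27-fold higher. Tmem173, the adaptor on the endoplasmic reticulum that relays signals of cytosolic DNA, had 11.15, 11.24, 11.30 and 11.39 in irr NSCs, against 11.88, 11.94, 11.89 and 12.03 in non-irr NSCs. All irr arrays were below all non-irr arrays, and the log2 fold change was -0.66 ± 0.06 (SE, n = 4 per group, adjusted p = 5.5e-06 from limma), a 1.58-fold decrease. Its second probe set changed by -0.77. Ifih1, a sensor of long double-stranded RNA, Dhx58 (LGP2), its regulator, and Zbp1, a sensor of Z-form nucleic acid, stayed under the intensity on all arrays.

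Enzymes that act on RNA or nucleotides gave a mixed result. Samhd1, which breaks down deoxynucleoside triphosphates and restricts retroviruses, had 8.61, 8.51, 8.63 and 8.66 in irr NSCs, against 9.31, 9.22, 9.18 and 9.12 in non-irr NSCs. It fell on every irr array below every non-irr array, with a log2 fold change of -0.61 ± 0.06 (SE, n = 4 per group, adjusted p = 4.7e-06 from limma), or 1.52-fold lower. A second probe set of Samhd1 changed by -0.84, and another, close to the intensity limit, was not called (0.00, adjusted p = 0.99 from limma). Adar, which edits adenosine to inosine in double-stranded RNA, was the member whose probe sets were called in both directions. Its brightest was higher by 0.36 (adjusted p = 5.5e-04 from limma) and the other was lower, with a change of -0.34 (adjusted p = 0.0015 from limma). The mean of its probe sets changed by 0.01 and was not called (adjusted p = 0.82 from limma), so that no direction can be given for Adar. Trim25, a ubiquitin ligase of the Ddx58 pathway, stayed under the intensity.

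Eif2ak2 (PKR), the kinase that stops translation when it meets double-stranded RNA, had 8.98, 8.59, 8.43 and 8.19 in irr NSCs, against 8.18, 8.39, 8.50 and 8.06 in non-irr NSCs. The irr arrays were widely spread (SD 0.33) and overlapped the non-irr arrays. The change of 0.26 (95% interval -0.09 to 0.62) was not called (adjusted p = 0.16 from limma). Without irr replicate 4, the lowest of its group, it was 0.38 (adjusted p = 0.041 from limma). The other probe sets of Eif2ak2 over the intensity were higher by 0.57 and 0.95, with adjusted p = 2.8e-04 and 3.1e-05 from limma, and the mean of its probe sets was called higher (0.59, adjusted p = 2.5e-04 from limma).

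Among 13 listed antiviral effectors, 6 were in the fit, of which 4 were higher and 2 not called, beside 40.2% of all genes higher. Ifit3, 1 of the 4, was in the fit through irr arrays alone. The largest fitted log2 change of any member was that of Ifit3, of a family that binds viral RNA and adaptor proteins. It had 8.06, 7.96, 7.98 and 8.08 in irr NSCs, against 6.30, 6.08, 5.94 and 6.10 in non-irr NSCs. All non-irr arrays lay under an intensity of 100, so its place in the order is not established and the increase is given as at least 2.59-fold (log2 fold change 1.92 ± 0.07, SE, n = 4 per group, adjusted p = 1.2e-08 from limma), the irr mean over that intensity. A near-identical copy, Ifit3b, lies in the same gene cluster, and its share of this signal was not tested. Ifit2, its neighbour on chromosome 19 and a member of the same family, had 8.66, 8.75, 8.52 and 8.61 in irr NSCs, against 8.56, 8.70, 8.67 and 8.55 in non-irr NSCs. These arrays overlapped fully, with a change of 0.02 (95% interval -0.12 to 0.16, adjusted p = 0.79 from limma). Ifit1, the third of the family on chromosome 19, was under the intensity on all arrays, with 5.58 ± 0.25 in irr NSCs and 4.56 ± 0.05 in non-irr NSCs (SD, n = 4).

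Ifitm3, a membrane protein that blocks the fusion of viruses with endosomes, was bright in both groups. It had 13.46, 13.61, 13.72 and 13.66 in irr NSCs, against 12.55, 12.56, 12.57 and 12.54 in non-irr NSCs, and the groups did not overlap. The log2 fold change was 1.06 ± 0.06 (SE, n = 4 per group, adjusted p = 1.2e-07 from limma), or 2.09-fold. Ifitm2, in the same cluster on chromosome 7 and of like function, was 1.76-fold higher (log2 fold change 0.81, adjusted p = 2.7e-07 from limma), while Ifitm1, which lies between them, stayed under the intensity, with 6.02 ± 0.05 in irr NSCs and 6.07 ± 0.05 in non-irr NSCs (SD, n = 4). Rsad2 (viperin), which makes a chain-terminating nucleotide, was higher by 0.62 (adjusted p = 3.1e-06 from limma). Its other 2 probe sets were in the fit through 1 irr array each, with irr means under the intensity. Bst2 (tetherin), which holds budding virus at the cell surface, had 6.97, 6.96, 6.93 and 6.96 in irr NSCs, against 6.92, 6.90, 7.11 and 7.29 in non-irr NSCs. The irr arrays were very close to each other and lay within the range of the non-irr arrays, so that the change of -0.10 (95% interval -0.28 to 0.08) was not called (adjusted p = 0.29 from limma).

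**Figure D2:**
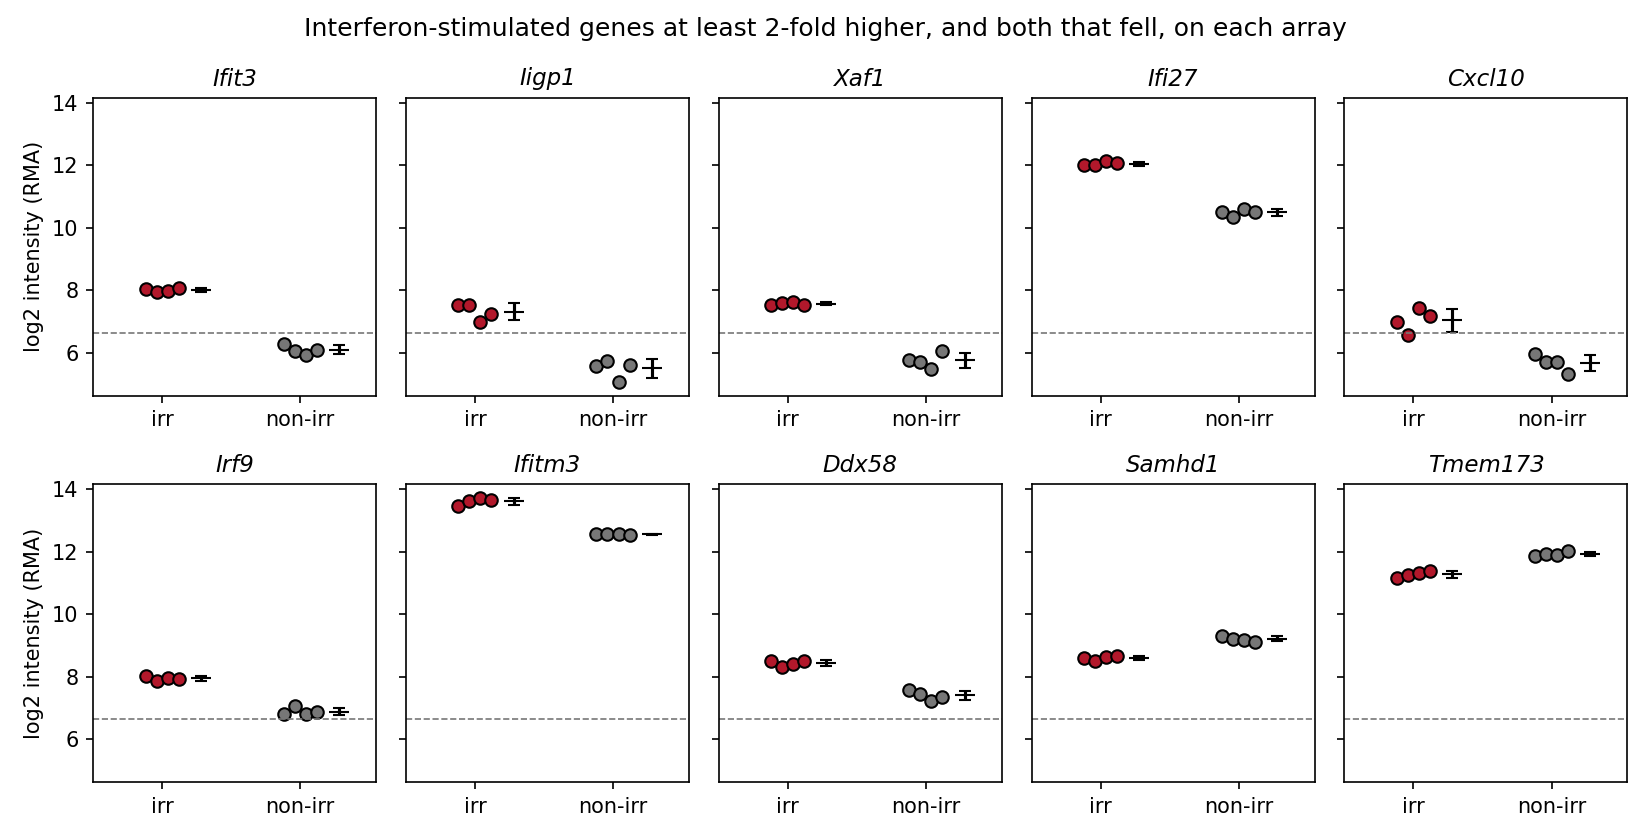
Log2 intensity on each array, irr left and non-irr right in each panel, with the mean and SD of 4 arrays beside the points, for the 8 members called at least 2-fold higher and both that fell. The dashed line is an intensity of 100. In every panel the groups do not overlap, as for 73.4% of all genes tested. The panels were chosen by their calls, and Ifit3, Iigp1, Xaf1 and Cxcl10 were in the fit through irr arrays alone, so this is largely set by the choice.

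The promoters of 6 members are shown so that the response element can be set beside the values of members with positive and negative changes. They are the 3 highest and the 3 lowest fitted log2 fold changes among members whose sequence could be shown, which leaves out Iigp1, Ifi27 and Tmem173. The order among the first 3 rests on non-irr arrays under the intensity, and of the last 3 only Samhd1 was called lower. The sequences are from RefSeq on GRCm38.p6, each running 5′ to 3′ from 250 bases before the gene's start to 50 bases after it. Capitals mark the core of the interferon-stimulated response element, searched as GAAANNGAAA or TTTCNNTTTC on the other strand, and the gamma-activated site, searched as TTCNNNGAA, which reads the same on both strands. Ifit3 is at chr19:34583279-34583578 on the plus strand, Xaf1 at chr11:72301379-72301678 on the plus strand and Cxcl10 at chr5:92348840-92349139 on the minus strand.
Ifit3: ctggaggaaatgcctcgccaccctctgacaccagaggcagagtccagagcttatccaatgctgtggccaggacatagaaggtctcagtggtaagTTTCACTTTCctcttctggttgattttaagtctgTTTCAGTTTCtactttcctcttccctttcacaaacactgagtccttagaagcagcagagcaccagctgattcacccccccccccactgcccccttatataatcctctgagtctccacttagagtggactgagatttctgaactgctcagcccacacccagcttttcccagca
Xaf1: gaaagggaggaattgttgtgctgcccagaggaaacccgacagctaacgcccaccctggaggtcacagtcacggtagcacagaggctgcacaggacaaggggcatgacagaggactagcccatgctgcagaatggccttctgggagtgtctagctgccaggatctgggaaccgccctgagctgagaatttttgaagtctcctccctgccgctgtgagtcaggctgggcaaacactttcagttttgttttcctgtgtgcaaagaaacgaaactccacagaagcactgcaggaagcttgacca
Cxcl10: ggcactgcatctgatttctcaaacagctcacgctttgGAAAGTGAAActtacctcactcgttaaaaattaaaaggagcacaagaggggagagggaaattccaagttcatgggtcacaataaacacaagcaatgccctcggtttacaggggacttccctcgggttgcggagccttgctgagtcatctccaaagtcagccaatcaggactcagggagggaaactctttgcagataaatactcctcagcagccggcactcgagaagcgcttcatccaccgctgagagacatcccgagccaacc
Of the members that were lower or had a negative change, Samhd1 is at chr2:157135047-157135346 on the minus strand, Stat2 at chr10:128270248-128270547 on the plus strand and Bst2 at chr8:71537423-71537722 on the minus strand.
Samhd1: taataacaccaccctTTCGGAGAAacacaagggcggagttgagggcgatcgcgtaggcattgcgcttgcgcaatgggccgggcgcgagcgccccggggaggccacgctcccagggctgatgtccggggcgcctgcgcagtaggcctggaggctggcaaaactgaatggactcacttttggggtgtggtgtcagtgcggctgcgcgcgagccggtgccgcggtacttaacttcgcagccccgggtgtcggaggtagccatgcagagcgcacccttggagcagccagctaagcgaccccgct
Stat2: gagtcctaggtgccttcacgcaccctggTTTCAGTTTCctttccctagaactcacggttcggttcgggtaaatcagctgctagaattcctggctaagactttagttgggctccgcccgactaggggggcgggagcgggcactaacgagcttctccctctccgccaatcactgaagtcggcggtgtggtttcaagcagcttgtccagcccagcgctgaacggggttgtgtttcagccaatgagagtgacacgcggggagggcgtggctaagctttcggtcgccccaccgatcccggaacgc
Bst2: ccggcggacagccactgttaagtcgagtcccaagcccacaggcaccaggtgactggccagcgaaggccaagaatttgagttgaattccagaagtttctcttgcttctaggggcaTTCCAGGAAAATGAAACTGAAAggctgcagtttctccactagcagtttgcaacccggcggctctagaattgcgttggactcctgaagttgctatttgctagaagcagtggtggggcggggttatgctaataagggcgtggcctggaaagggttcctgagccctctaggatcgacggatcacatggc

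The Ifit3 window holds 2 response element cores, TTTCACTTTC beginning 156 bases before the start and TTTCAGTTTC beginning 122 bases before it. Cxcl10 has 1, GAAAGTGAAA, 213 bases before the start, and the Xaf1 window has neither motif. Bst2, which was not called, holds 2 cores that overlap each other and a gamma-activated site, TTCCAGGAA, that overlaps the first of them. Stat2, also not called, has 1 core 222 bases before its start, and Samhd1, which fell, has no core and 1 gamma-activated site, TTCGGAGAA, 235 bases before the start.

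Over the members as a whole, a promoter sequence was matched for 29 of the 39. At least 1 response element core was found in 15 of these (51.7%) and at least 1 gamma-activated site in 11 (37.9%), while 3.99% and 9.55% of 27025 genes hold them in windows of the same length. A core was found in 8 of 14 members that were higher, in 0 of 1 that was lower, in 3 of 4 not called and in 4 of 10 under the intensity. Of the 8 members called at least 2-fold higher, 6 had a window and 4 of these (Ifit3, Cxcl10, Ifitm3 and Ddx58) held a core. Letters in a window are a description and do not show that a factor binds there.

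The guanylate-binding proteins and immunity-related GTPases act against pathogens inside vacuoles and are best known as genes induced by interferon gamma. Of 3 members in the fit, Irgm1 was over the intensity on all arrays and higher, as were 39.8% of all genes over it everywhere, while Iigp1 and Gbp3 passed the intensity through irr arrays alone and had to be higher. Iigp1 (Irga6) had 7.53, 7.54, 6.98 and 7.25 in irr NSCs, against 5.59, 5.75, 5.07 and 5.62 in non-irr NSCs. The non-irr arrays were all under the intensity, so that the increase is at least 1.60-fold (log2 fold change 1.82 ± 0.16, SE, n = 4 per group, adjusted p = 4.5e-06 from limma), and a second probe set, under it in the same way, was at least 1.27-fold higher. Irgm1, a regulator of the family, was over the intensity everywhere and 1.40-fold higher, with 9.35 to 9.41 in irr NSCs and 8.84 to 8.94 in non-irr NSCs (log2 fold change 0.49, adjusted p = 3.5e-06 from limma). Gbp3 had 6.76, 6.88, 6.86 and 6.78 in irr NSCs, against 6.33, 6.59, 6.58 and 6.41 in non-irr NSCs. Its irr arrays were only just over the intensity and its non-irr arrays just under it, an increase of at least 1.13-fold (log2 fold change 0.34, adjusted p = 0.0011 from limma). Gbp2, in the same cluster on chromosome 3, was under the intensity on all arrays, with 5.59 ± 0.26 in irr NSCs and 4.33 ± 0.13 in non-irr NSCs (SD, n = 4), as was Igtp (Irgm3), with 5.75 ± 0.16 in irr NSCs and 5.73 ± 0.16 in non-irr NSCs (SD, n = 4).

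Of 7 other induced genes, 5 were in the fit. Ifi27, Ifi30 and Ifi35 were over the intensity on all arrays and higher, beside 39.8% of all genes over it everywhere, and Xaf1 and Cxcl10 were in the fit through irr arrays alone. Xaf1, a protein that binds the apoptosis inhibitor XIAP, had 7.54, 7.59, 7.64 and 7.54 in irr NSCs, against 5.79, 5.71, 5.50 and 6.06 in non-irr NSCs. As every non-irr array was under the intensity, the increase is at least 1.91-fold (log2 fold change 1.81 ± 0.10, SE, n = 4 per group, adjusted p = 1.4e-07 from limma). A second probe set of Xaf1, under the intensity on all arrays, had 4.89 ± 0.05 in irr NSCs and 4.86 ± 0.09 in non-irr NSCs (SD, n = 4), and the groups overlapped. Ifi27, a small hydrophobic interferon-induced protein, had 12.02, 12.00, 12.14 and 12.06 in irr NSCs, against 10.51, 10.36, 10.61 and 10.52 in non-irr NSCs. It was bright in both groups and 2.94-fold higher (log2 fold change 1.56 ± 0.06, SE, n = 4 per group, adjusted p = 1.3e-08 from limma), the largest increase among members over the intensity on all 8 arrays, and its second probe set gave 1.65.

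Cxcl10, a chemokine that attracts T cells, had 6.98, 6.57, 7.43 and 7.18 in irr NSCs, against 5.96, 5.70, 5.70 and 5.34 in non-irr NSCs. It had the widest spread of any member among irr arrays (SD 0.36), irr replicate 2 lay under the intensity with all non-irr arrays, and the increase is at least 1.32-fold (log2 fold change 1.37 ± 0.18, SE, n = 4 per group, adjusted p = 7.3e-05 from limma). Ifi30 (GILT), a lysosomal thiol reductase of antigen processing, was 1.97-fold higher, with 8.89 to 9.11 in irr NSCs and 7.97 to 8.12 in non-irr NSCs (log2 fold change 0.98, adjusted p = 2.7e-07 from limma). Ifi35 was higher by 0.47 (adjusted p = 8.1e-04 from limma), and all 3 of its probe sets in the fit were called higher.

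For 4 of the 8 members called at least 2-fold higher (Ifit3, Iigp1, Xaf1 and Cxcl10) the size of the change thus rests on non-irr arrays under the intensity, and the bound itself exceeds 2-fold for Ifit3 only. Ifi27, Irf9, Ifitm3 and Ddx58 were over it on every array.

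**Figure D3:**
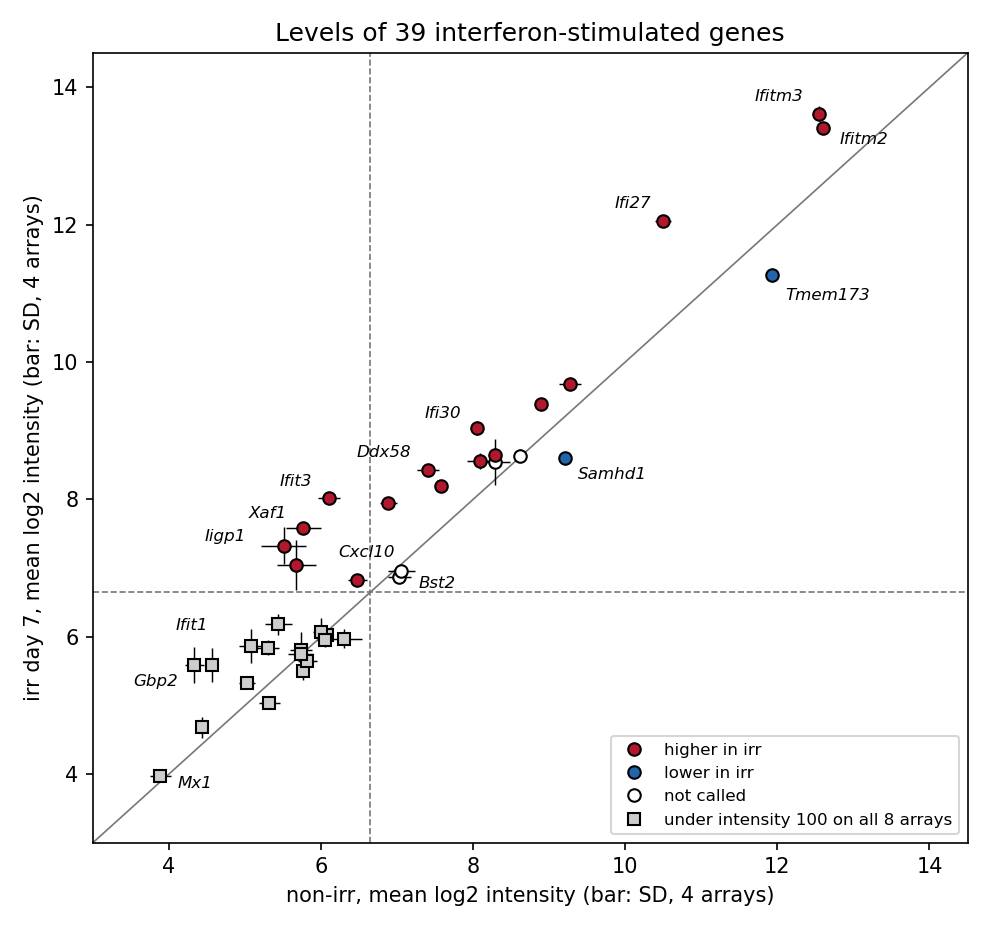
Mean log2 intensity in irr NSCs (vertical axis) against that in non-irr NSCs (horizontal axis) for 39 interferon-stimulated genes, with SD bars over 4 arrays; the solid line is equality and the dashed lines mark an intensity of 100. Circles are the 22 members in the fit, red higher, blue lower and white not called, and grey squares the 17 members under the intensity on all 8 arrays.

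A large share of the list was not measured above the intensity. The 17 members under an intensity of 100 on all arrays were Ifih1, Ifit1, Ifitm1, Isg20, Irf7, Irf8, Oasl2, Oas2, Mx1, Mx2, Usp18, Gbp2, Igtp, Dhx58, Trim25, Parp14 and Zbp1. The highest of their log2 values was 6.63, for Irf8 in non-irr replicate 1, just outside the limit, and just inside it was Gbp3, with 6.88 in irr replicate 2. They include effectors that are textbook markers of the interferon response, among them Mx1 and Mx2, dynamin-like GTPases that trap viral particles, and Oas2, which makes the messenger that activates RNase L.

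With no filter, 7 of the 17 were called higher (Ifit1, Isg20, Oasl2, Usp18, Gbp2, Dhx58 and Parp14), 3 lower (Irf7, Irf8 and Trim25) and 7 not. Of all 18193 genes in that fit, 26.6% were higher and 28.9% lower. The share among genes that stay under the intensity was not computed, so these counts have no like background. Differences among the 17 are between values under the intensity and no fold is given. Usp18, which removes Isg15 from proteins and dampens the type I receptor, had 5.86 ± 0.25 in irr NSCs and 5.07 ± 0.15 in non-irr NSCs (SD, n = 4). Parp14, an ADP-ribosyltransferase, had 6.18 ± 0.15 in irr NSCs and 5.44 ± 0.18 in non-irr NSCs (SD, n = 4). Irf7 had 5.50 ± 0.13 in irr NSCs and 5.76 ± 0.08 in non-irr NSCs (SD, n = 4). Mx1, the member with the lowest values, had 3.97 ± 0.08 in irr NSCs and 3.89 ± 0.14 in non-irr NSCs (SD, n = 4).

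The genes upstream of these members were read from further lists, with the members left out. Of 15 interferon genes listed, 9 were measured, and none of these 9 was over the intensity. They (Ifna1, Ifna2, Ifna4, Ifna5, Ifna9, Ifna11, Ifnab, Ifnb1 and Ifng) had a highest log2 value of 6.49 on any array, and their summed intensity was 298 to 336 in irr NSCs and 291 to 342 in non-irr NSCs, with overlapping ranges. All 5 receptor chains in the fit were higher, beside 40.2% of all genes tested. Ifnar1 and Ifnar2, the type I receptor, had log2 fold changes of 0.30 and 0.41 (adjusted p = 7.8e-05 and 1.1e-05 from limma). Ifngr1 and Ifngr2, the receptor of interferon gamma, had 0.78 and 0.99 (adjusted p = 1.4e-06 and 4.3e-07 from limma), and Il10rb, shared by interferon lambda and interleukin-10 receptors, had 0.82 (adjusted p = 3.5e-07 from limma). Ifnlr1, the specific chain for interferon lambda, was under the intensity.

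Of the Janus kinases, Jak1 was higher by 0.40 (adjusted p = 9.3e-04 from limma) and Jak2 by 0.12 (adjusted p = 0.039 from limma), while Tyk2 had -0.02 and was not called (adjusted p = 0.71 from limma). Of 3 further interferon regulatory factors in the fit, Irf2 was higher (0.34) and Irf3 and Irf5 were lower (-0.47 and -0.53), none by 2-fold. The list of negative regulators had 3 higher (Socs3, Ptpn11 and Pias3), 1 lower (Pias4) and 4 not called of 8 in the fit. This is 37.5% higher and 12.5% lower, against 40.2% and 37.1% of all genes. The at least 2-fold change of this list was that of Socs3, a feedback inhibitor of JAK-STAT signalling. Socs3 had 9.05 ± 0.11 in irr NSCs and 7.17 ± 0.08 in non-irr NSCs (SD, n = 4), a 3.66-fold increase (adjusted p = 6.7e-09 from limma).

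A further list of nucleic acid sensors and adaptors also held the RNase H2 subunits and Tlr4, which are neither. Of its 12 genes in the fit, 4 were higher (33.3%), 6 lower (50%) and 2 not called, against 40.2% and 37.1% of all genes. The median log2 fold change of these 12, -0.18, includes Tlr4 and the 3 RNase H2 subunits, which are among the 6 lower. The 10 over the intensity on all 8 arrays had 4 higher, 4 lower and 2 not called, with a median of 0.02. Of all genes over it on all arrays, 39.8% were higher and 37.8% lower. The subunits of RNase H2, which removes ribonucleotides from DNA, were all lower by over 2-fold. Rnaseh2a had 9.26 ± 0.11 in irr NSCs and 10.81 ± 0.05 in non-irr NSCs (SD, n = 4), a log2 fold change of -1.55 (adjusted p = 1.3e-08 from limma). Rnaseh2b changed by -1.67 (adjusted p = 2.1e-08 from limma) and Rnaseh2c by -1.30 (adjusted p = 9.3e-08 from limma). The at least 2-fold increase of this list was that of Tlr4, the receptor for bacterial lipopolysaccharide, with 9.42 ± 0.14 in irr NSCs and 7.19 ± 0.19 in non-irr NSCs (SD, n = 4), or 4.68-fold (adjusted p = 3.1e-08 from limma). Smaller changes were 0.56 for Myd88, 0.35 for Tbk1 and 0.20 for Traf6, all signalling adaptors or kinases, and -0.37 for Cgas, the DNA sensor upstream of Tmem173, -0.33 for Tlr3 and -0.24 for Tlr9. Tlr9 was in the fit through non-irr arrays alone and had to be lower. Cgas had 1 of 4 irr arrays over the intensity and an irr mean of 6.57, under it, so the size of its decrease is uncertain.

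**Figure D4:**
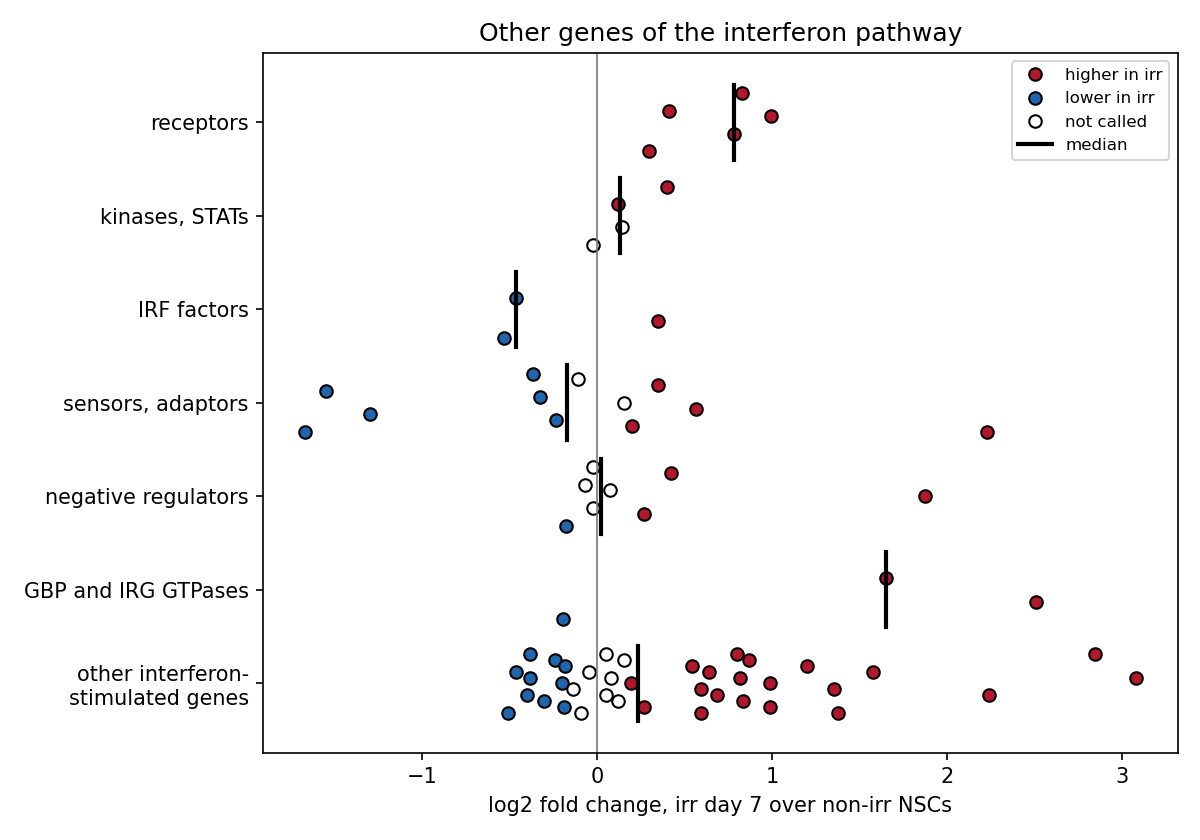
Log2 fold change of irr over non-irr NSCs for genes of 7 further pathway lists, members left out, 1 point per gene in the fit with its vertical place spread only for legibility; red is higher in irr, blue lower and white not called, and the bar is the median of the list. All 5 receptors are higher, beside 40.2% of all genes tested. The list of sensors and adaptors, which also holds RNase H2 subunits and Tlr4, runs from -1.67 for Rnaseh2b to 2.23 for Tlr4.

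In a wider list of other interferon-stimulated genes, 75 were measured and 38 were in the fit, of which 20 were higher, 10 lower and 8 not called, with a median of 0.23. This is 52.6% higher and 26.3% lower, against 40.2% and 37.1% of all genes. Of the 38, 5 were in the fit through irr arrays alone. The 25 over the intensity on all arrays had 12 higher, 8 lower and 5 not called, with a median of 0.12. Of all genes over it on all arrays, 39.8% were higher and 37.8% lower, with a median of 0.01. The fit gave at least 2-fold increases for 7 of the 38 and at least 2-fold decreases for 0, against 8.88% and 6.16% of all genes. Of the 25 it gave 2 such increases, against 7.23% of all genes over the intensity on all arrays. Samd9l, an antiviral restriction factor, was at least 3.96-fold higher (log2 fold change 3.08, adjusted p = 1.3e-07 from limma) and Lgals3bp, a secreted glycoprotein, at least 3.77-fold (2.24, adjusted p = 4.8e-08 from limma), both with all non-irr arrays under the intensity. Trim12c had 9.15 ± 0.05 in irr NSCs and 6.31 ± 0.26 in non-irr NSCs (SD, n = 4; adjusted p = 1.3e-08 from limma), and as 1 of 4 non-irr arrays was over the intensity, the size of its increase is uncertain. Tap1 and Tapbp, which act in the presentation of peptides on MHC class I, were 2.60-fold and 2.56-fold higher (adjusted p = 1.8e-07 and 9.1e-08 from limma). Tmem140 had 6.53 ± 0.11 in irr NSCs, a mean under the intensity, and 4.95 ± 0.07 in non-irr NSCs (SD, n = 4; adjusted p = 1.7e-08 from limma). Among GTPases outside the member list, 3 were in the fit, of which Gbp6 and Irgm2 passed the intensity through irr arrays alone and had to be higher. Gbp6 was at least 3.14-fold and Irgm2 at least 1.08-fold higher (log2 fold changes 2.51 and 1.65, adjusted p = 6.6e-08 and 1.6e-07 from limma). Irgc1, over the intensity on all arrays, was lower (-0.20, adjusted p = 0.0074 from limma), as were 37.8% of all genes over it everywhere.

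Several measures of the libraries moved with the groups. The cultures carried the label of NSCs, and 10 of 11 NSC markers were over the intensity, with Nr2e1 under it on all arrays. Of these 10, 3 were higher (Sox2, Vim and Fabp7), 3 lower (Pax6, Msi1 and Hes5) and 4 not called in irr NSCs, none by 2-fold. This is 30% higher and 30% lower, against 40.2% and 37.1% of all genes. Of 11 markers of microglia and macrophages, 9 were under the intensity on all arrays, Ptprc, Itgam, Aif1, Cx3cr1 and Adgre1 among them, Cd68 was at least 2.75-fold higher and Csf1r was not called. Their summed intensity was 643 to 749 in irr NSCs and 445 to 515 in non-irr NSCs. Without Cd68, a lysosomal protein, the sum of the other 10 was 399 to 432 in irr NSCs and 395 to 470 in non-irr NSCs, and the groups overlapped. Of 7 mesenchymal markers, 4 (Col3a1, Dcn, Lum and Thy1) were over the intensity on at least 1 array and higher, Dcn by at least 1.06-fold and Lum by at least 2.98-fold as their non-irr arrays were under it, with Col1a1, Col1a2 and Pdgfrb under it, and the sum of the list was 5528 to 6038 in irr NSCs and 1795 to 1898 in non-irr NSCs. Their part in the increases of the members was not tested, and 40.2% of all genes tested were higher. The 7 endothelial markers summed to 307 to 328 in irr NSCs and 320 to 366 in non-irr NSCs, and the 6 measured lymphocyte markers to 401 to 435 in irr NSCs and 414 to 472 in non-irr NSCs, with overlapping ranges.

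RNA quality was read from control probe sets at both ends of the same transcript. The 3′ minus 5′ gap was wider in irr NSCs for actin (0.51 ± 0.07 in irr NSCs and 0.26 ± 0.03 in non-irr NSCs, SD, n = 4), the transferrin receptor (0.85 ± 0.24 in irr NSCs and 0.35 ± 0.21 in non-irr NSCs, SD, n = 4) and pyruvate carboxylase (1.06 ± 0.07 in irr NSCs and 0.52 ± 0.11 in non-irr NSCs, SD, n = 4). Each gave an exact permutation p = 0.029 (two-sided, adjusted 0.039 over 4 controls), the smallest that 4 against 4 arrays can give. For Gapdh it was -0.06 in irr NSCs and -0.08 in non-irr NSCs (exact permutation p = 0.71). The part of this gap in the members' values was not tested. Across all tested probe sets, replicates correlated at 0.991 to 0.997 and arrays of different groups at 0.912 to 0.923, and the second principal component (3.68% of the variance) split the irr arrays, with replicates 1 and 2 on one side and 3 and 4 on the other. Without both irr replicates 3 and 4, 17 members were higher and 2 lower.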

How the data were processed

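RNA of 4 irr and 4 non-irr NSC cultures was hybridised to Affymetrix mouse genome arrays. The values are log2 RMA values as deposited by the authors, who read the arrays with GCOS and normalized them with RMA; their present calls were not used here. The table holds 45101 probe sets, of which 64 controls were left out. The platform annotation gave 1 symbol to 34958 probe sets, several to 932 and none to 9211, and 34754 were matched to RefSeq by gene number. Probe sets over an intensity of 100 on at least 1 array (21919) were tested with limma 3.58.1 in R 4.3.3, two-sided, with Benjamini-Hochberg adjustment over all of them; the threshold was 0.05 and the fold threshold 2. A gene with several probe sets is represented by the one whose mean over the 8 arrays is highest. On an array 19849 to 20059 probe sets passed the intensity, and the number of arrays limits the precision. "At least" folds set the irr mean over an intensity of 100.

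Every member is named; values of each array are given for members changed at least 2-fold and the 5 nearest to no change, and were added for Samhd1 and Tmem173 after their values were seen. Pathway genes are named when changed at least 2-fold, at most 6 a list, with all receptors and Janus kinases; others were named after their values were seen, to account for small counts. The members, lists and rules were chosen with earlier results of these data known. The fit was tested on simulated data. Alternatives were other filters, scalings, limma settings, a replicate block, other ways to combine probe sets and leaving out arrays. Figures were drawn with matplotlib 3.10.9.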

Additional observations from a re-analysis of the deposited data

Results flagged for a closer look

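In 3 groups, 1 array lay far from the other 3, by a gap that takes up more of the group's range than Dixon's 95% critical value. Chance flags about 1 in 20 groups, and these genes were under an intensity of 100 on all arrays. Oasl2 had 4.91 in irr replicate 4, against 4.59 to 4.62 in the other irr arrays, and 4.55 in non-irr replicate 2, against 4.38 to 4.40 in the other non-irr arrays. Zbp1 had 5.80 in irr replicate 4, below the other irr arrays, of which the highest had 6.02.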

How the results depend on the processing

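Of 430 values of single members under 20 alternatives, 421 kept their direction and side of the threshold, 8 gained a call, 1 lost it and 0 reversed. The calls of 19 of the 22 members held under every alternative run that included them, and the exceptions were Stat2, Eif2ak2 and Adar. Stat2 was also called lower with a further quantile normalization (-0.20, adjusted p = 0.032 from limma) and with arrays centred on their median (-0.21, adjusted p = 0.019 from limma). It was called lower too where 1 mean of all probe sets per gene was tested (adjusted p = 0.045 from limma). Stat2 has 1 probe set in the fit, so its change there was the same -0.17 and no probe sets were combined for it. Eif2ak2 was also called higher without both irr replicates 3 and 4 (0.50, adjusted p = 0.017 from limma), an alternative chosen after seeing the data. With the mean of all probe sets, fewer features were tested and 8859 were called, against 16467 probe sets. With no intensity filter, 5 members were lower and the median was 0.36, as 17 more members were tested. Centring on reference genes gave a median of 0.67 and moved the median of all probe sets to 0.10, with 69.2% of at least 2-fold calls being increases, against 58.6%. Leaving out 1 array at a time gave 16 to 17 members higher, 2 to 3 lower, 7 to 9 at least 2-fold higher and medians of 0.54 to 0.58.

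Replicate numbers are shared between the groups, but deviations of same-numbered arrays correlated at 0.04, 0.38, -0.21 and 0.51, so that the numbers were not taken as pairs. With the replicate block, 16 members were higher, 3 lower (Stat2 added, adjusted p = 0.047 from limma) and 8 at least 2-fold higher, the median was 0.55 and 16550 probe sets were called.

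Binding of a probe set to transcripts of related genes, as in the Ifit, Ifitm and Gbp families, was not tested. Folds that rest on non-irr values under the intensity are lower bounds, and 4 arrays a group limit the precision.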
